A study of Mus musculus with 2 samples.

Results

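Neutrophils of the mouse cervix are described here from 2 single-cell libraries, one from ovariectomised control mice and one from ovariectomised mice given progesterone. Cell barcodes were chosen by measured transcript counts: a neutrophil held at least 10 transcripts of S100a8 and S100a9 together, at least 2 of Csf3r, Cxcr2 and Retnlg, at most 3 of Krt5 and Krt14 and 0 of C1qa, C1qb and C1qc. Transcripts were counted as unique molecular identifiers (UMIs), and a barcode also had to show 200 or more genes with mitochondrial UMIs no higher than 20%. By these criteria 620 barcodes were neutrophils, 257 of the control and 363 of the progesterone library, out of 13981 that passed the gene and mitochondrial limits and 16221 deposited. The levels of the genes in this rule chose the barcodes, so their levels, and the share of barcodes, are a description only.

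All mice were C57BL6/129 females, ovariectomised at 7 to 8 weeks of age and left for 2 weeks to recover, which removes the ovarian source of estrogen and progesterone in both groups. Controls then stayed untreated over 15 days. The progesterone group was primed with estradiol (E2), 100 µg per day under the skin in corn oil for 2 days, and then carried a 25 mg pellet that releases its load over 21 days at about 1 mg per day. Estradiol priming, vehicle and pellet therefore cannot be told apart from progesterone. Each library pooled the cervices of 9 mice, so each group is 1 sample, no test between groups was possible, and every interval below covers counting error only, with no spread between mice. Cells were released with a cold protease over 60 min at 4 °C, passed through a 40 µm strainer and captured with the 10x Genomics 3′ kit, version 3.1.

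Neutrophils are short-lived granulocytes that mature in the bone marrow, where they fill their granules in sequence: azurophil granules with Mpo and elastase first, then specific granules with Ltf and Lcn2, then gelatinase granules with Mmp9. Mature cells leave on CXCR2 and G-CSF receptor signals, and in tissue they switch on cytokines such as Il1b and the chemokines Cxcl2, Ccl3 and Ccl4, many of them through the transcription factor NF-kB. Type I interferon adds a separate programme of antiviral genes through transcription factors that bind the interferon-stimulated response element (ISRE). In the cervix, neutrophils are known for their numbers in the estrogen-poor phases of the cycle and around birth.

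The promoters of 5 genes with a motif match are shown first: 3 interferon-stimulated genes with higher and 2 chemokine genes with lower levels in the progesterone library. Each line gives the 250 bases before the transcription start, 5′ to 3′ on the gene's strand, from RefSeq on build GRCm38.p6. Capitals mark matches, read on either strand, to the ISRE core (GAAA, any 2 bases, GAAA) in the first 3 sequences and to the NF-kB motif (GGG, any 2 bases, TTTCC) in the last 2. Isg15 lies at chr4:156200819-156201068, minus strand, Rsad2 at chr12:26456453-26456702, minus strand, and Cxcl10 at chr5:92348890-92349139, minus strand. Cxcl2 lies at chr5:90903649-90903898, plus strand, and Cxcl3 at chr5:90785851-90786100, plus strand.
Isg15: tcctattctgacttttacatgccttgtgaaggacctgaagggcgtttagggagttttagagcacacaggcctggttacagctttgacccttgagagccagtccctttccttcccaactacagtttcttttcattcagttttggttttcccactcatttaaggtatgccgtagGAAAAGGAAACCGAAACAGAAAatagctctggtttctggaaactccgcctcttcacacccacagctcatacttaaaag
Rsad2: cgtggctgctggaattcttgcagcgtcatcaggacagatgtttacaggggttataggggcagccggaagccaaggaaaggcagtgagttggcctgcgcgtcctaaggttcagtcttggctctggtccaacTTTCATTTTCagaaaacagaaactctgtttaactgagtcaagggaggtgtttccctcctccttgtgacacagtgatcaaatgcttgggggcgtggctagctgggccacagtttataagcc
Cxcl10: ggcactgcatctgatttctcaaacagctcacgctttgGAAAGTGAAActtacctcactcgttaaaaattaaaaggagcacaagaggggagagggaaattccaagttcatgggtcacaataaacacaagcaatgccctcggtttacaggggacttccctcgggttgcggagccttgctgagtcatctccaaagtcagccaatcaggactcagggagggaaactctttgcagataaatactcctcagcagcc
Cxcl2: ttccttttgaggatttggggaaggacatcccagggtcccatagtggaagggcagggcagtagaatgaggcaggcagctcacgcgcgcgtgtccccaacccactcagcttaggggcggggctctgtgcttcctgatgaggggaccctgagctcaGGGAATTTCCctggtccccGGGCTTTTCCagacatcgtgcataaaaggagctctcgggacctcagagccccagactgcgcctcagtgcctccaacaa
Cxcl3: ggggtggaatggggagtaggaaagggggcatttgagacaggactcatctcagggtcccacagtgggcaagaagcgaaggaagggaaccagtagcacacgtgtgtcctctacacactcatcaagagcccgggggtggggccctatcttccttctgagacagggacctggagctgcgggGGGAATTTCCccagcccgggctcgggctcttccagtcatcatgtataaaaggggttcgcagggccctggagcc
Isg15 has 3 ISRE matches that overlap one another, the first starting 78 bases before the transcription start. Rsad2 has 1 match on the opposite strand 120 bases before the start, and Cxcl10 has 1 match 213 bases before it. The 2 NF-kB matches of Cxcl2 begin 97 and 78 bases before the start, and the match of Cxcl3 begins 73 bases before it. These distances are from the RefSeq start. The gene span of Cxcl2 given below is from GENCODE and begins within the bases shown. Other genes of the comparison had none: Oasl1 and Cmpk2 no ISRE match, and Ccl3 and Il1b no NF-kB match. A match is a description of the letters and not a bound site.

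Neutrophil barcodes were shallow in both libraries. They summed to 211674 UMIs in the control and 342245 in the progesterone library, with medians of 593 and 796 UMIs and of 324 and 418 genes per barcode. The deposited files hold no barcode under 500 UMIs, and 53.3% of control against 10.2% of progesterone neutrophils lay under 600, so more of the control barcodes lay close to that limit. Only 20 control and 89 progesterone neutrophils reached 1000 UMIs. Their share of filtered barcodes was 5.40% [95% Clopper-Pearson interval 4.77 to 6.08] for the control against 3.94% [3.55 to 4.35] with progesterone. The part of the 500-UMI limit in this share was not tested.

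The label was checked against markers of other cells. Il1b, which is not in the rule, had a UMI in 94.9% of control and 89.3% of progesterone neutrophils, and 49.9% and 67.1% of each library's Il1b UMIs lay in them. Over the lists of 15 macrophage and monocyte, 10 dendritic, 7 eosinophil, 9 mast cell and basophil, 12 T and NK and 7 B and plasma cell markers, summed levels ran from 4.72 to 728 UMIs per 1000000 (CPM) for the control and from 0 to 652 CPM with progesterone. Mrc1, Fcrls and F13a1 of macrophages, Prg2 and Epx of eosinophils, Cd3e, Nkg7, Cd79a and Cpa3 were at 0 in both. Without the mixed barcodes described next, the macrophage list summed to 936 and 689 CPM and the dendritic list to 638 and 246 CPM, and their part in the results was not tested. The 19 barcodes that both libraries shared included 0 neutrophils.

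A small group of barcodes stood apart. In 8 control and 8 progesterone neutrophil barcodes, over 2.5% of UMIs came from epithelial markers (5 and 4 barcodes) or from erythrocyte markers (3 and 4). These 16 mixed barcodes were deep, with medians of 5620 and 5492.5 UMIs, and held 23.8% of all control and 10.9% of all progesterone neutrophil UMIs. With them the summed epithelial markers stood at 18519 and 6186 CPM, control first, and without them at 3539 and 3198 CPM. Erythrocyte markers, mainly globins, went from 27557 and 26189 CPM to 74.4 and 430 CPM. Results below are for all barcodes, and the leading ones are also given without the 16 mixed ones or only for the 237 control and 274 progesterone barcodes under 1000 UMIs, 0 of which were mixed. The limits of 2.5% and of 1000 UMIs were chosen after the data had been seen.

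**Figure D1:**
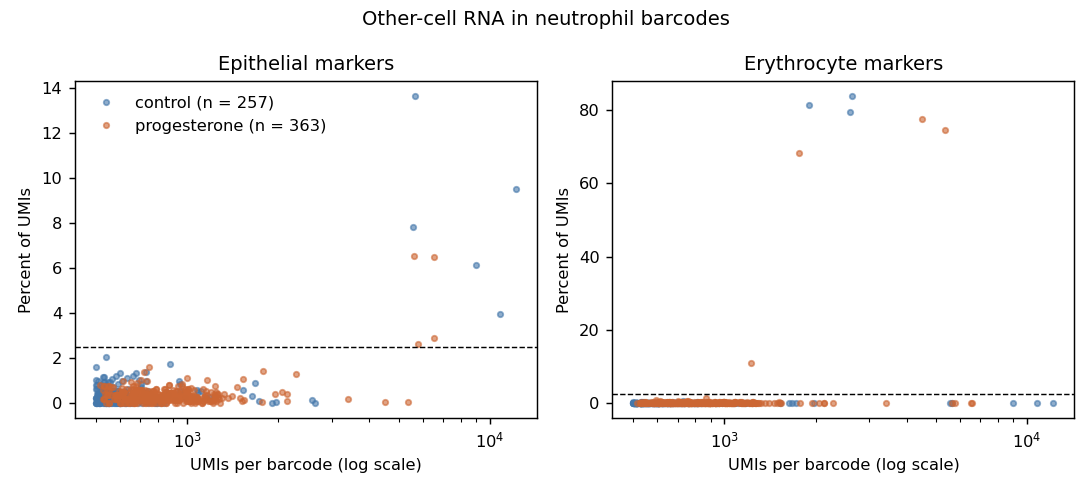
Each point is 1 neutrophil barcode, placed by its UMIs (log scale) and by the percent of those UMIs from epithelial markers (left) or erythrocyte markers (right), for 257 control and 363 progesterone barcodes. The dashed line marks 2.5%, and the 16 barcodes above it are the mixed ones, all of them over 1000 UMIs.

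The rule's own genes had the following levels. S100a8 and S100a9, which encode the calprotectin subunits, stood at 33533 and 56705 CPM for the control, against 41386 and 68597 CPM with progesterone. Retnlg, a resistin-like gene of mature mouse neutrophils, had 3510 and 5850 CPM, Csf3r, the G-CSF receptor, 1422 and 1718 CPM, and Cxcr2, the receptor for Cxcl2, 2159 and 2525 CPM. In barcodes under 1000 UMIs the ratio of progesterone over control was 1.01 for S100a8, 0.978 for S100a9, 0.970 for Cxcr2 and 1.16 for Retnlg. At the edge of the rule, 46 control and 32 progesterone barcodes had exactly 2 UMIs of the receptor genes and were kept, while 54 and 27 with 1 UMI were left out. Those with 1 UMI still carried medians of 49 and 47 calprotectin UMIs, against 46.5 and 50 just inside. At the keratin limit, 9 control and 18 progesterone barcodes had 3 UMIs and were kept, and 7 and 5 had 4 and were left out, beside 129 and 44 with more. At the calprotectin limit, 4 and 7 barcodes had 10 to 12 UMIs, and 4 and 1 had 7 to 9 and were left out.

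Genes of immature and dividing neutrophils were nearly absent from both libraries. Of the 13 early granule and precursor genes, 6 were at 0 UMIs in both libraries, among them Elane, Prtn3 and Ctsg, the serine proteases of azurophil granules. Mpo had 1 UMI in each library, Mki67 had 3 in the control and 5 in the progesterone library, and Camp, a specific granule peptide of the marrow stages, had 0 in both. Ngp, another gene of those stages, had 1 and 2 UMIs, so these stages were not detectable beyond single transcripts. Cd63 was the only member with at least 50 UMIs over both libraries, the minimum for a gene to be described, and had 283 and 254 CPM.

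Later granule genes were present and mostly close between libraries. Mmp9, the gelatinase, had 718 CPM [608 to 842] for the control against 1043 CPM [938 to 1157] with progesterone, a ratio of 1.45 [1.20 to 1.77], and 1.07 [0.867 to 1.33] under 1000 UMIs. Mmp8, the neutrophil collagenase, had 123 and 181 CPM, Cd177 75.6 and 102 CPM, and Hp, haptoglobin, 926 and 1180 CPM. None of these 4 genes was past 2-fold. Of 1395 genes described, 4.59% were at least 2-fold higher and 5.45% at least 2-fold lower with progesterone. Of the 13 described granule genes, 6 had a ratio above 1 and 7 below, with a median log2 ratio of −0.01. Without the mixed barcodes described above, the median was 0.07 over 12 genes. Anxa1 and Adam8 were among the lower ones, at log2 ratios of −0.97 and −0.53. Past 2-fold were 0 of the 13 higher and 3 lower, namely Ltf, Lcn2 and Olfm4.

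Those 3 are also made by epithelium and depended on the mixed barcodes. Ltf, lactoferrin, had 1214 control UMIs, of which 94.7% lay in the 8 mixed barcodes, and 153 progesterone UMIs. All other control barcodes held it at 3262 CPM and those with progesterone at 845 CPM, and without the mixed barcodes its ratio was 0.347. Lcn2, lipocalin-2, went from a ratio of 0.440 [0.396 to 0.488] to 1.00 without them. Olfm4, which marks a subset of neutrophils and also luminal epithelium, had a ratio of 0.478 [0.296 to 0.765] with and 3.39 without them, on 5 control and 32 progesterone UMIs. Macrophage barcodes of the progesterone library held it at 603 CPM. No direction is therefore read for these 3 genes.

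Mature identity genes were close between the libraries. Of 30 members 27 were described, 17 with a ratio above 1 and 10 below, and their median log2 ratio was 0.09, beside 0.14 over all 1395 genes. Without the mixed barcodes the medians were −0.11 and 0.02. Srgn, the granule proteoglycan core serglycin, had 10719 and 11226 CPM, Hdc, histidine decarboxylase, 2121 and 2264 CPM, and G0s2 2641 and 2466 CPM. Il1r2, the decoy receptor for interleukin-1, had 987 and 760 CPM, and Clec4d, a C-type lectin receptor, 1592 and 1248 CPM. Wfdc21, a whey acidic protein family gene, was the only member past 2-fold, with 58 control UMIs in 45 barcodes against 205 in 133 barcodes, a ratio of 2.19 [1.63 to 2.98]. It was 1.89 without the mixed barcodes and 1.79 under 1000 UMIs. Near-identical genes of this list, such as Stfa2l1 and its family, Gm5483 and BC100530, and Mrgpra2a and Mrgpra2b, can share reads and are uncertain one by one.

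Receptors for trafficking and sensing had a median log2 ratio of 0.24 over 17 described members of 21, and of 0.05 without the mixed barcodes, with 0 past 2-fold in either case. Cxcr4, the marrow homing receptor that rises on aged cells, had 89.8 CPM [54.0 to 140] and 158 CPM [119 to 206], a ratio of 1.76 [1.03 to 3.14]. Its UMIs numbered only 19 and 54. Tlr2, a receptor for bacterial lipoproteins, had the highest ratio of the 17 described members at 1.98 [1.47 to 2.71], and 1.45 [1.04 to 2.06] under 1000 UMIs. C5ar1, the complement C5a receptor, had a ratio of 1.51 and Ccr1 1.38, while Ltb4r1, the leukotriene B4 receptor, had 0.762.

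The oxidase that makes superoxide showed no shared direction. Of its 6 genes 4 had a ratio above 1 and 2 below, with a median log2 ratio of 0.21 and of 0.02 over the 5 still described without the mixed barcodes. Ncf4, the p40phox subunit, stood at 312 CPM [241 to 397] and 596 CPM [517 to 684], a ratio of 1.91 [1.44 to 2.56], whereas Cyba, the p22phox subunit, had a ratio of 0.830 [0.709 to 0.972].

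**Figure D2:**
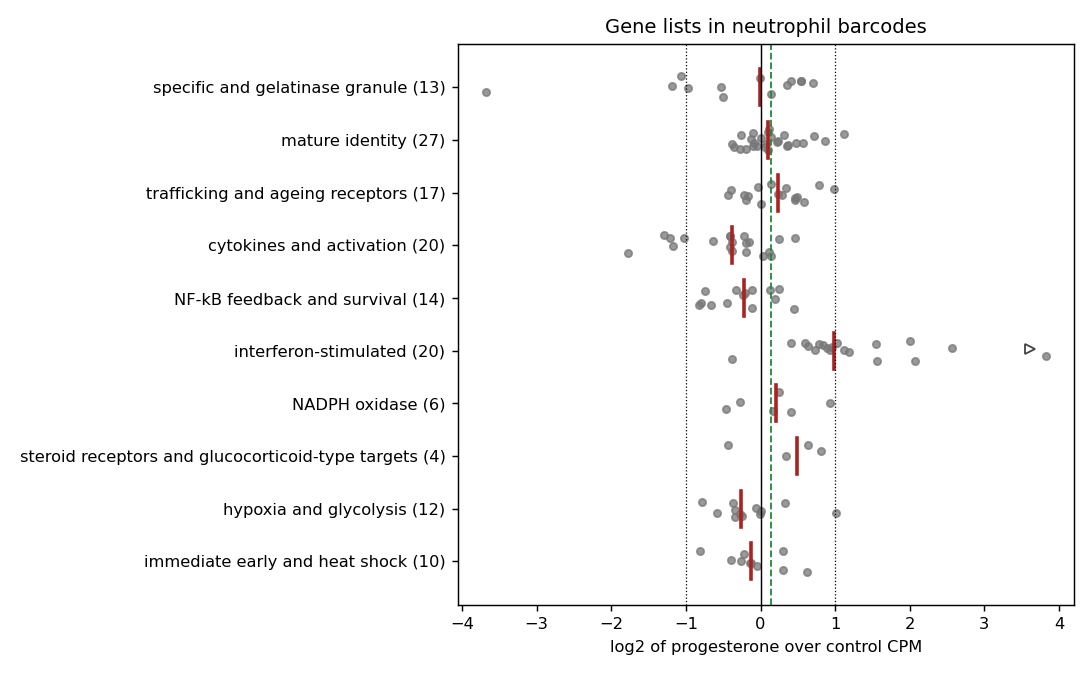
Each grey point is 1 described gene of a list, placed by the log2 of its progesterone over control level in neutrophil barcodes, with the number of genes after each list's name. Red bars are list medians, the dashed green line is the median of 0.14 over all described genes, dotted lines mark 2-fold, and the open triangle is Cxcl10 at its lower bound. The interferon list has its median at 0.99 and the cytokine list at −0.39.

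Chemokines and other activation genes were lower in the progesterone library. Of 26 members 20 were described, 15 with a ratio below 1 and 5 above, and 5 were at least 2-fold lower and 0 higher, beside the 5.45% and 4.59% of all described genes. Cxcl2 (chr5:90903871-90905938), which recruits neutrophils through CXCR2, had 1043 control UMIs or 4927 CPM [4633 to 5236], and 829 progesterone UMIs or 2422 CPM [2260 to 2593]. The ratio was 0.492 [0.448 to 0.539]. Cxcl3, a close relative of Cxcl2, stood at 784 CPM [669 to 913] and 318 CPM [262 to 384], a ratio of 0.406 [0.316 to 0.520].

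The monocyte and T cell attractants followed the same order. Ccl3 had 283 CPM [216 to 365] against 81.8 CPM [54.4 to 118], a ratio of 0.289 [0.177 to 0.459], on 60 and 28 UMIs. Ccl4 had 487 CPM [397 to 590] against 216 CPM [170 to 271], a ratio of 0.444 [0.325 to 0.605]. Thbs1, thrombospondin-1, a matrix glycoprotein that activates TGF-beta, had 742 CPM [630 to 867] against 318 CPM [262 to 384], a ratio of 0.429 [0.333 to 0.552]. For each of these 5 genes the level intervals of the libraries did not overlap. They were named for being past 2-fold lower, and the share of all described genes with intervals apart is not given here.

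Il1b, the interleukin-1 beta gene, was closer between libraries. It stood at 7771 CPM [7400 to 8156] and 6773 CPM [6500 to 7054], a ratio of 0.872 [0.818 to 0.929], 0.746 without the mixed barcodes and 0.686 under 1000 UMIs. Il1rn, its antagonist, had a ratio of 0.902 [0.738 to 1.10], Nlrp3, the inflammasome sensor, 0.751 [0.584 to 0.967], and Osm, oncostatin M, 0.751 [0.541 to 1.05]. Acod1, which makes itaconate, had 1.09 and Csf1, the macrophage growth factor gene, 1.03 [0.808 to 1.31]. Il1a had 28 control and 3 progesterone UMIs, too few to be described, and 67.9% of the control UMIs lay in mixed barcodes. Tnf had 4 and 11 UMIs, Cxcl1 5 and 1, and Il10 0 in both, so these cytokines were not detectable as differences at this depth.

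Without the mixed barcodes the same 5 genes, and 0 others of the 20, were past 2-fold lower, and the list median moved from −0.39 to −0.57. The background was then 2.71% lower and 3.13% higher of 1182 genes. Under 1000 UMIs the ratios were 0.382 [0.342 to 0.427] for Cxcl2, 0.321 for Cxcl3, 0.229 for Ccl3, 0.352 for Ccl4 and 0.434 for Thbs1. Of 19 described members 5 were then past 2-fold lower, beside 2.84% of 951 genes.

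**Figure D3:**
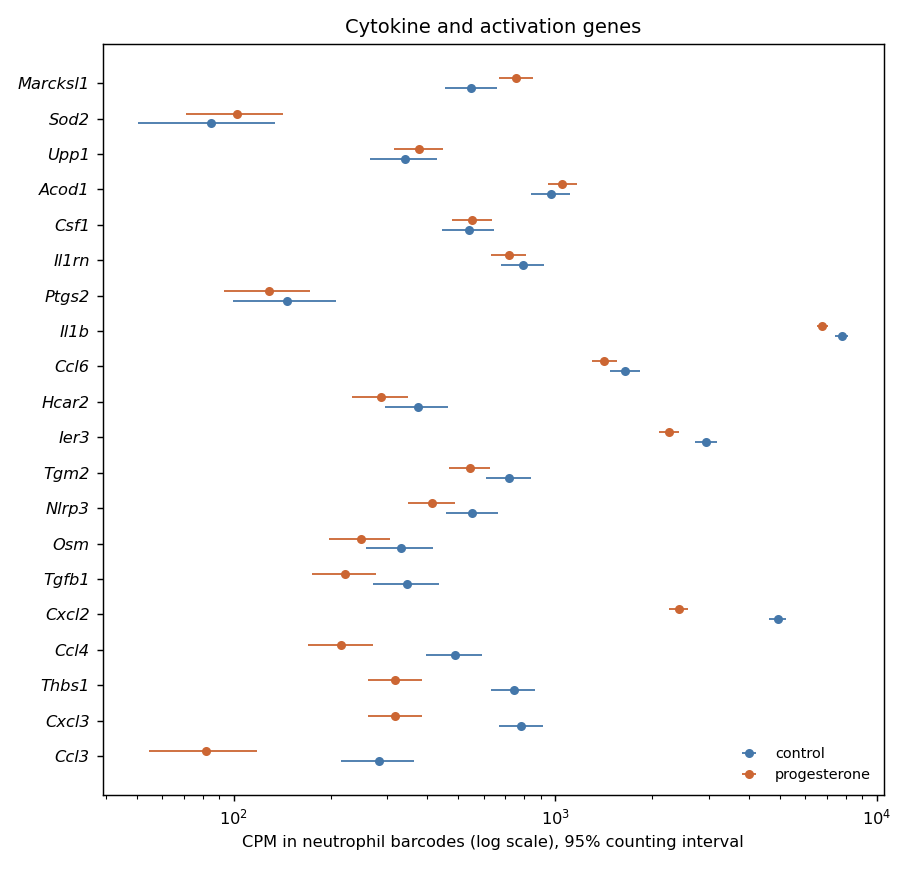
Levels of the 20 described cytokine and activation genes in neutrophil barcodes as CPM on a log scale, with 95% Poisson counting intervals, 1 point per library. Genes are ordered by their ratio, and the 5 at the bottom, Ccl3, Cxcl3, Thbs1, Ccl4 and Cxcl2, have control levels at least 2-fold above the progesterone levels.

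In the list of NF-kB feedback and survival genes, most described members had a ratio below 1, and more of them did without the mixed barcodes. The list also holds NF-kB subunits and genes that promote cell death, such as Bcl2l11 and Fas, at log2 ratios of −0.45 and 0.12. Of 14 described members of 20, 10 had a ratio below 1 and 0 were past 2-fold, with a median log2 ratio of −0.22, and of −0.38 without the mixed barcodes. Without these barcodes 13 of 14 were below 1, beside 569 of 1182 genes. Under 1000 UMIs 11 of 14 were, beside 452 of 951. Nfkbia, the inhibitor that NF-kB itself induces, had 1564 CPM [1400 to 1742] and 885 CPM [788 to 991], a ratio of 0.566 [0.483 to 0.664], and 0.487 without the mixed barcodes, when it was the 1 member past 2-fold. Gadd45b, a stress response gene, had a ratio of 0.577 [0.449 to 0.741] and Nfkbiz 0.597 [0.406 to 0.877]. Mcl1, the survival factor on which neutrophil lifespan depends, had 0.925 [0.841 to 1.02], and Pim1, a survival kinase, 1.36 [1.16 to 1.60]. The near-identical Bcl2a1 genes are uncertain one by one.

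Most described stress genes had a ratio below 1. These were 7 of 10 immediate early and heat shock genes and 9 of 12 hypoxia and glycolysis genes, beside 554 of all 1395 genes. Immediate early and heat shock genes had a median log2 ratio of −0.13 over 10 described members of 14, and of −0.34 without the mixed barcodes, with Jun at a ratio of 0.567 [0.421 to 0.765], Fos at 0.834, Junb at 1.23 [1.07 to 1.41] and Btg2 at 1.55 [1.27 to 1.90]. Hypoxia and glycolysis genes had a median of −0.26 over 12 of 16, with Hk2, hexokinase 2, at 0.581 [0.382 to 0.884], Pfkp at 0.667 [0.495 to 0.898] and the glucose transporter gene Slc2a3 at 2.06 [1.14 to 3.95]. Without the mixed barcodes 10 of 12 were below 1, with a median of −0.22. The hypoxia list was also lower in macrophage barcodes, with a median of −1.41 over 8 genes, and in squamous ones, with −1.50 over 14. Slc2a3 was under 2-fold without the mixed barcodes, at 1.73, and under 1000 UMIs, at 1.63. Aldoa was left out because several identifiers carry its symbol. Tissue handling can induce the first group, and its part in the cytokine values was not tested.

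Interferon-stimulated genes were higher in the progesterone library. Of 42 members 41 are in the files and 20 were described, 19 with a ratio above 1 and only Ly6e below. At least 2-fold higher were 10 of the 20 and lower 0, beside 4.59% and 5.45% of all described genes. The list's median log2 ratio was 0.99. Their summed level, the undescribed members included, was 5844 CPM for the control against 11068 CPM with progesterone, a ratio of 1.89 [1.78 to 2.02].

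Isg15 (chr4:156199424-156200818), a ubiquitin-like modifier, had 76 UMIs in 54 control barcodes, or 359 CPM [283 to 449]. In the progesterone library it had 361 UMIs in 139 barcodes, or 1055 CPM [949 to 1169], a ratio of 2.94 [2.29 to 3.81]. Rsad2 (chr12:26442746-26456452), which encodes the antiviral enzyme viperin, had 180 CPM [127 to 246] and 728 CPM [640 to 824], a ratio of 4.05 [2.87 to 5.86]. Rsad2 was found in 63 progesterone and 18 control barcodes.

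Cmpk2 (chr12:26469204-26479837), a mitochondrial nucleotide kinase gene next to Rsad2, had 2 control UMIs and 57 progesterone UMIs, a ratio of 17.6 [4.66 to 149]. Its level was 3697 CPM in the 9 progesterone barcodes with Cxcl10, described below, and 77.9 CPM in the other 354. Oasl1, an oligoadenylate synthetase-like gene, had 94.5 CPM [57.7 to 146] and 406 CPM [341 to 480], a ratio of 4.30 [2.68 to 7.25]. Ifit1, which binds foreign RNA ends, had 7 and 71 UMIs, a ratio of 6.27 [2.89 to 16.2]. In each of these 3 genes, all past 2-fold higher, the progesterone level lay above the control interval. The share of all described genes for which this holds is not given here.

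Regulators of the response were higher as well. Irf1 had 13 and 49 UMIs, a ratio of 2.33 [1.25 to 4.68], and Irf7, the amplifier of type I interferon, 21 and 66, a ratio of 1.94 [1.17 to 3.34]. Slfn4, a myeloid schlafen gene, had 642 CPM [539 to 760] and 1148 CPM [1038 to 1268], a ratio of 1.79 [1.47 to 2.19]. Ifitm3, an entry inhibitor, had a ratio of 1.33 [1.17 to 1.52], Rtp4 2.20 and Parp14 2.06. Ly6e stood at 591 and 453 CPM, and 46.4% of its control UMIs lay in mixed barcodes.

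Members under 50 UMIs in all were mostly in the same order. Ifit3 had 5 control and 25 progesterone UMIs, Ifit3b 2 and 27, Zbp1 2 and 25, Usp18, which damps the response, 3 and 20, Igtp 1 and 19, and Ifi47 2 and 15. Ifit3 and Ifit3b are near-identical copies, and their counts cannot be told apart with confidence. Bst2 had 8 UMIs in each library, Iigp1 1 in each and Mx1 0 in both, and Mx2 is not in the files.

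**Figure D4:**
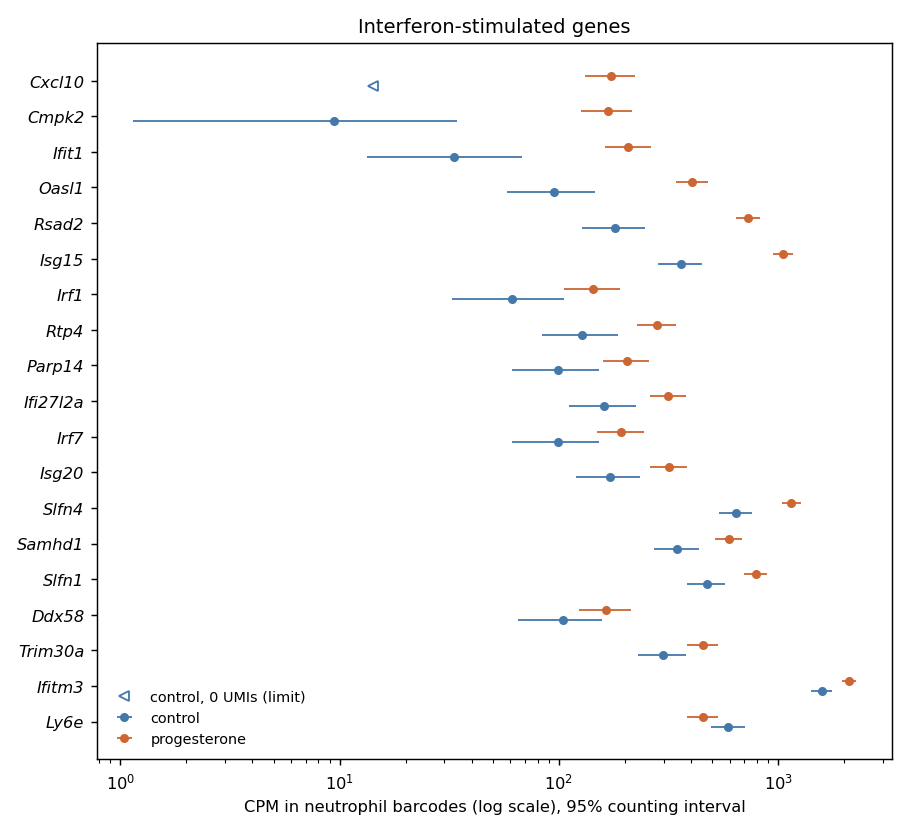
Levels of 19 of the described interferon-stimulated genes in neutrophil barcodes as CPM on a log scale, with 95% Poisson counting intervals, 1 point per library and genes ordered by ratio. The open triangle places control Cxcl10, with 0 UMIs, at the limit of 3 counts, or 14.2 CPM. In 18 of these 19 genes the progesterone point lies to the right of the control point, and Ly6e has the opposite order.

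The interferon list stayed higher when deep or mixed barcodes were left out. Without the mixed barcodes 8 of 20 members were at least 2-fold higher, beside 3.13% of 1182 genes, and the median log2 ratio was 0.81. Rtp4 and Parp14 were then under 2-fold, at 1.84 and 1.85. Under 1000 UMIs 6 of 16 members were past 2-fold higher, beside 2.73% of 951 genes, with a median of 0.74. Isg15 had a ratio of 2.73 [2.07 to 3.64] there, Rsad2 3.11 [2.12 to 4.68] and Oasl1 3.85 [2.37 to 6.54].

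Cxcl10, an interferon-induced chemokine for T cells, was found in few cells. It had 0 control UMIs, while the progesterone library had 59 UMIs in 9 barcodes, 172 CPM [131 to 222], with up to 21 in 1 barcode. Against a limit of 3 counts in the control library it was at least 12.2-fold higher. Those 9 barcodes, none of them mixed, had a median of 860 UMIs against 791 in the other 354. Their other interferon-stimulated genes summed to 51991 CPM, compared with 9863 CPM in the 354, and Rsad2 stood at 11925 and 446 CPM. Cxcl2 was no lower in them, at 3577 against 2393 CPM. The 354 without Cxcl10 thus still had more Rsad2 than the 180 CPM of the control library.

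To compare cells at a like depth, each barcode was thinned at random to 500 UMIs, which kept every neutrophil. A UMI of Isg15 was then found in 16.7% [12.4 to 21.9] of control and 29.2% [24.6 to 34.2] of progesterone neutrophils, against 21.0% and 38.3% before thinning. Rsad2 was found in 4.67% [2.44 to 8.01] and 13.2% [9.91 to 17.1], and Oasl1 in 5.06% [2.72 to 8.49] and 17.4% [13.6 to 21.7]. In macrophage barcodes, thinned likewise, Isg15 was found in 2.26% and 5.66%, Rsad2 in 2 of 133 and 6 of 265 and Oasl1 in 2 and 3, at medians of 1417 and 1203 UMIs before thinning. Squamous barcodes had Isg15 in 0.626% and 0.898%, but at medians of 5380 and 5083 UMIs. Thinning such deep barcodes to 500 leaves fewer UMIs of any free RNA, so they can understate the background. The same holds to a smaller degree for the macrophage barcodes. The neutrophil shares were above those of both kinds of barcode, although macrophages can express these genes themselves.

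Thinned shares of chemokines had the opposite order. Cxcl2 was found in 67.3% [61.2 to 73.0] of control and 42.1% [37.0 to 47.4] of progesterone neutrophils, against 72.4% and 50.7% before thinning, Cxcl3 in 24.9% and 9.92%, and Ccl3 in 11.7% and 3.86%. Macrophage barcodes had Cxcl2 in 3.01% and 3.02%. Il1b was found in 90.7% [86.4 to 93.9] and 82.1% [77.8 to 85.9]. A cell was counted as cytokine-high with at least 10 UMIs of Il1b, Il1a, Tnf, Cxcl2, Cxcl3, Ccl3 and Ccl4 in its 500, a range of a score and not a cell type. That held for 41.6% [35.5 to 47.9] of control and 16.3% [12.6 to 20.5] of progesterone neutrophils, and for 41.4% and 14.9% without the mixed barcodes.

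**Figure D5:**
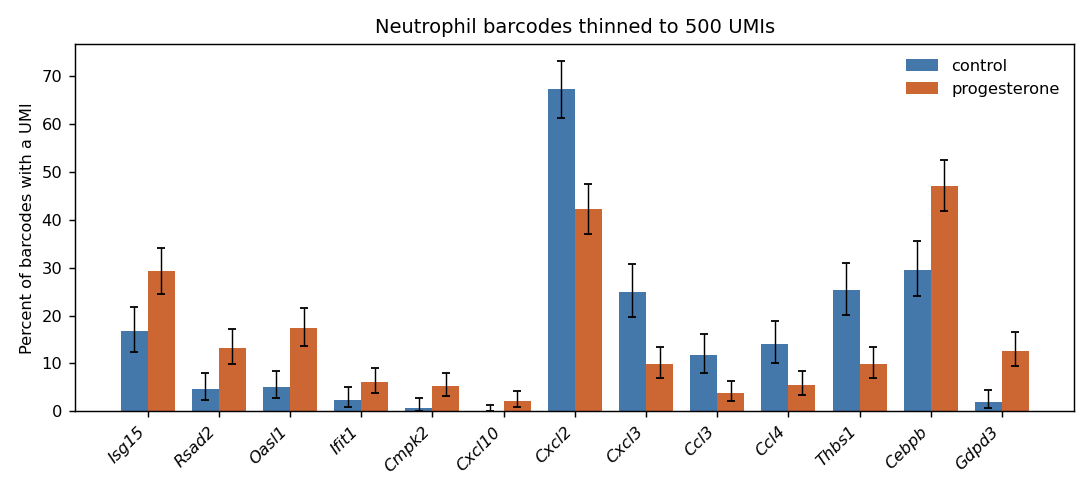
Percent of neutrophil barcodes with at least 1 UMI of a gene after each barcode was thinned to 500 UMIs, for 257 control and 363 progesterone barcodes, with 95% Clopper-Pearson intervals. Interferon-stimulated genes on the left, and Cebpb and Gdpd3 on the right, have the higher bar in the progesterone library, and the 5 genes from Cxcl2 to Thbs1 in the control library.

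Interferon-stimulated transcripts were unevenly spread over cells. In cells thinned to 500 UMIs, at least 3 UMIs of the interferon list were held by 51.4% [45.1 to 57.6] of control and 63.6% [58.5 to 68.6] of progesterone neutrophils. Macrophage barcodes reached 30.8% and 30.2% and squamous ones 34.3% and 17.1%, since the list holds broadly expressed genes, so this share is no measure of a response alone. The highest count in 1 cell was 23 in the control and 52 in the progesterone library, and the 10% of cells with the most list UMIs held 30.7% and 41.0% of them. Cells with at least 3 interferon UMIs were cytokine-high in 38.6% [30.3 to 47.5] of control cases, against 44.8% [35.9 to 54.0] of the other cells. In the progesterone library these shares were 15.6% [11.2 to 20.9] and 17.4% [11.4 to 25.0]. The intervals overlap within each library, but they cover counting error over cells only, and a relation between the 2 states was not tested. Both scores also draw on the same 500 UMIs of a cell.

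The lists were also compared by depth. With the mixed barcodes left out, the summed interferon list had a progesterone over control ratio of 1.69 [1.45 to 1.97] in barcodes under 600 UMIs and 1.79 [1.59 to 2.02] from 600 to under 800. It was 1.88 [1.55 to 2.30] from 800 to under 1000 and 1.85 [1.51 to 2.29] at 1000 or more. Single genes varied more: Isg15 had ratios of 2.52, 2.26, 4.62 and 3.49 over these ranges, whereas Rsad2 had 9.13, 2.97, 0.913 [0.483 to 1.87] and 5.60, so it was not higher from 800 to under 1000 UMIs. The cytokine list had 0.728 [0.661 to 0.802], 0.604 [0.567 to 0.643] and 0.660 [0.60 to 0.73] in the first 3 ranges, but 1.13 [1.00 to 1.28] at 1000 or more. That last range held only 12 control barcodes, beside 81 of the progesterone library, and the range just below it held 19 and 92. In those 12, mature identity genes summed to 24888 CPM, compared with 52912 to 61459 CPM in shallower control barcodes and 48235 CPM in the 81, and Srgn to 5993 CPM against 11437 CPM. Of the 103 dendritic marker UMIs in unmixed control barcodes, only 14 lay in barcodes under 1000 UMIs, so most lay in those 12. With progesterone, 56 of 75 lay in barcodes under 1000 UMIs. The part of other cells' RNA in the values at this depth was not tested. Thinning to 1000 UMIs, the depth first planned, kept only 20 control and 89 progesterone barcodes, 8 of each mixed, and cytokine-high cells were then 15.0% [3.21 to 37.9] and 48.3% [37.6 to 59.2]. Without the mixed barcodes they were 33.3% [9.92 to 65.1] and 55.6% [44.1 to 66.6]. The lower summed cytokine level of the progesterone library was thus measured on barcodes under 1000 UMIs, which were 237 of the 257 control neutrophils. Without the mixed barcodes the summed Cxcl2 level was lower in every range. Its ratios were 0.578, 0.278, 0.407 and, at 1000 or more, 0.600 [0.471 to 0.772]. In that last range Cxcl3 had a ratio of 1.10 [0.466 to 3.18], and Il1b 1.91 with a lower bound of 1.49. These barcodes thinned to 1000 UMIs had a Cxcl2 UMI in 66.7% of 12 control and 71.6% of 81 progesterone ones. Their Cxcl2 means were 5.92 and 3.25 UMIs, but their medians were 1 and 2. The lower Cxcl2 level at this depth was thus not seen in the share or the median.

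Beside the lists, a fixed rule that could also pick list members named the 12 genes highest and the 12 lowest in the progesterone library. Genes needed at least 50 UMIs in the higher library, and neutrophils had to hold them at 2 times or more the level of all other barcodes. They were ranked by the bound of the ratio nearest to 1. Of the 831 described genes so held, 5.54% were past 2-fold higher and 5.54% lower, against 3.28% each way of 792 without the mixed barcodes, and 2.21% and 2.95% of 679 under 1000 UMIs. Of the 12 highest, 6 were Cxcl10, Cmpk2, Ifit1, Rsad2, Oasl1 and Isg15, described above. Cebpb, a transcription factor of emergency granulopoiesis and of inflammatory genes, had 539 CPM [444 to 647] and 1312 CPM [1193 to 1439], a ratio of 2.44 [1.98 to 3.02], and 2.00 [1.60 to 2.52] under 1000 UMIs. It was found in 29.6% [24.1 to 35.6] and 47.1% [41.9 to 52.4] of thinned neutrophils, against 3.76% and 4.15% of macrophage barcodes.

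The other genes of that group had fewer counts. Pfn1, profilin-1, an actin-binding protein, had 335 and 874 CPM, a ratio of 2.60 [2.00 to 3.42]. Nt5e, which encodes the ectonucleotidase CD73, had 8 and 54 UMIs, a ratio of 4.17 [1.97 to 10.2], and Rilpl2 10 and 57, a ratio of 3.53 [1.78 to 7.74]. Gdpd3, a lysophospholipase D gene, had 8 and 82 UMIs, a ratio of 6.34 [3.07 to 15.2], but macrophage barcodes also had 53.3 and 141 CPM of it. All 62 UMIs of Scgb3a1, a glandular secretoglobin and the remaining gene, came from mixed barcodes.

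The 12 lowest were Sprr2d, Lce3a, Crct1, Lce3b, Sprr2b, Psca, Lce3f, Ecm1, Ppbp, Cnfn, Prss27 and Lce3c. Most of them are genes of cornifying or luminal epithelium, and nearly all of their control UMIs lay in the 8 mixed barcodes, 96.1% for Psca and 100% for Lce3b. Without the mixed barcodes the rule named Gm26917, Ccl3, Dusp5, Cxcl2, Thbs1, Cxcl3, Ccl4, Nfkbia, P4hb, Cdkn1a, Nfil3 and Tnfrsf23 as lowest. Among these, Ccl3, Cxcl2, Thbs1, Cxcl3, Ccl4 and Nfkbia are list members described above. Dusp5, a phosphatase that acts on ERK, then had a ratio of 0.291, Cdkn1a, the cell cycle inhibitor p21, 0.470, and Nfil3, a transcription factor induced by cytokines, 0.463. Counts of Gm26917, a noncoding gene, can come from ribosomal RNA, and no level is given for it. On the higher side 11 of the 12 genes remained, Scgb3a1 gave way to Trim12a, and Trim12a, of the family of the interferon-induced Trim30a, had a ratio of 2.85.

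Genes that respond to steroids gave few counts. Pgr, the progesterone receptor gene, had 0 control and 1 progesterone UMI in the neutrophils. Esr1, the estrogen receptor gene, had 2 and 20 UMIs, where other barcodes of the libraries stood at 85.9 and 164 CPM, so the part of free RNA in those UMIs was not tested. The glucocorticoid receptor gene Nr3c1 had 26 and 54 UMIs, a ratio of 1.28 [0.791 to 2.14]. Of 14 members 4 were described, with a median log2 ratio of 0.49, and 0 were past 2-fold. Dusp1 had a ratio of 0.742 [0.603 to 0.915], Cebpd 1.76 [1.21 to 2.60] and Zfp36 1.57. Fkbp5, a classic target of progesterone and glucocorticoid receptors, had 3 UMIs in each library.

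Other barcodes of the same libraries were compared for the same lists. In macrophage barcodes, 133 control and 265 progesterone ones with at least 3 C1q UMIs, the interferon list had a median log2 ratio of −0.05 over 13 described genes, and the cytokine list 0.05 over 7. In squamous barcodes the interferon list had a median of 0.84 over 32 genes, with 15 past 2-fold higher beside 9.74% of the 11888 genes described there, and the cytokine list −0.65 over 16. The medians over all genes described there were −0.16 and 0.11. Both list medians of the squamous barcodes thus had the sign seen in neutrophils. For Rsad2 the level in all other barcodes was only 3.28 and 7.18 CPM, and for Oasl1 4.30 and 4.70 CPM, far below the neutrophil levels, while Cxcl2 stood at 57.8 and 8.63 CPM. Another 136 control and 49 progesterone barcodes met the rule except for the keratin limit. There the interferon list had a median of 0.64 over 5 genes and the cytokine list 0.64 over 14, beside 1.06 for mature identity genes. Epithelial markers summed there to 56684 and 20640 CPM, and their part in these medians was not tested.

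Epithelial RNA in neutrophil and macrophage barcodes differed between the libraries, and whether it was free RNA was not tested. Muc5b, a mucin of the columnar epithelium, had a UMI in 1.17% of control and 11.8% of progesterone neutrophils at 500 UMIs, and in 0% and 19.2% of macrophages, cells not known to make it, of which 23 with progesterone were above the 2.5% limit for epithelial markers. By the median over epithelial markers, the neutrophils carried 34.6% of the level of other barcodes in the control and 15.1% with progesterone when the mixed barcodes were counted. These shares were 6.66% and 10.8% without them, in the opposite order. With other barcodes' profiles subtracted in these proportions, the median log2 ratio of the interferon list was 1.13 with the mixed barcodes and 0.81 without them. That of the cytokine list was −0.38 and −0.58.

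Promoter letters were counted for all lists. Of the 42 interferon-stimulated genes 31 had an entry in the RefSeq table, and 17 of these, 54.8%, held the ISRE core in the 250 bases before to 50 after a start, compared with 3.99% of all 27025 genes in the table. Of the described members with the motif, 7 in number, 4 were past 2-fold higher with a median log2 ratio of 1.55, and of the 8 without it 3 were, with a median of 0.91. The NF-kB motif was in 5 of 19 cytokine genes, 26.3%, and in 6 of 17 NF-kB feedback genes, 35.3%, compared with 1.89% of all genes. The 4 described cytokine genes with it had a median log2 ratio of −0.59, and the 11 without it −0.20. The lists were drawn up from known targets of these factors, so the shares describe the lists and not these libraries.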

How the data were processed

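The authors deposited filtered UMI counts per gene and barcode for 2 libraries, whole numbers with no normalization, per the file headers, made with Cell Ranger 3.0.2 on mm10 per the submitters' processing notes; the annotation release is not given in the sources used here. The 31053 listed genes carry symbols, of which 35 are shared by several identifiers and were left out of lists, and 30934 identifiers were found in GENCODE vM21 on GRCm38. Members and gene lists were chosen with earlier results of these data known. The neutrophil rule and its counts open the report. Counts were summed over barcodes per library and divided by the library's neutrophil total to give CPM, with exact Poisson intervals; ratios have exact conditional binomial intervals and shares Clopper-Pearson intervals, all at 95%. A gene was described with at least 50 UMIs over both libraries, and a count of 0 was set to a limit of 3 counts per library. With 1 library per group no p-value was computed, and genes were called by size, at 2-fold. Named genes were those of the fixed lists and, beside them, 12 each way by the bound of the ratio nearest to 1. These 12 had at least 50 UMIs in the higher library and 2 times the level of other barcodes, and could be list members. For shares, barcodes were thinned at random to 1000 UMIs as planned and to 500 UMIs as an alternative; the report leads with 500 because 1000 kept 20 control barcodes. Doublets were called with Scrublet at an expected 0.8% per 1000 barcodes, and called barcodes were kept except in an alternative. UMIs remove copies from amplification, but free RNA and shallow capture remain in the counts. The summing and interval steps were tested on simulated data. Python 3.11.15, numpy 2.4.6, scipy 1.17.1, pandas 2.3.3, scanpy 1.11.5 and matplotlib 3.10.9 were used. Some members of the lists enter the list counts and medians but are not reported here by name.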

Additional observations from a re-analysis of the deposited data

How the results depend on the processing

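No paired analysis was possible because each group is 1 library, and leaving out a replicate was not possible for the same reason. With Krt5 and Krt14 at 0, the neutrophil share was 2.65% for the control and 2.04% with progesterone. It was 0.518% and 1.11% with at least 1000 UMIs, and 26.4% and 22.4% among barcodes under 1000 UMIs. A mitochondrial limit of 10% gave 4.65% with progesterone.

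Genes past 2-fold higher numbered 64, and 34 with keratins at 0, 191 with at least 1000 UMIs, 37 without mixed barcodes, 26 under 1000 UMIs, 161 with background subtracted, 232 with at least 20 UMIs per gene and 1035 with no filter. Genes past 2-fold lower numbered 76, and 25 with keratins at 0, 32 without mixed barcodes, 27 under 1000 UMIs, 200 with at least 20 UMIs and 1233 with no filter. Of genes held at 2 times the other barcodes, 46 were higher, and 15 with keratins at 0, 178 with at least 1000 UMIs, 26 without mixed barcodes, 15 under 1000 UMIs, 119 with at least 20 UMIs and 275 with no filter. Of the same genes 46 were lower, and 21, 26, 20, 108 and 377 under these settings, at least 1000 UMIs aside.

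With at least 1000 UMIs, the 20 control barcodes of which 8 were mixed, the median of all genes moved by 0.31. List medians were then 0.71 for granule genes, 1.90 for mature identity, 2.11 for trafficking, 1.45 for NF-kB feedback, 1.73 for interferon, 1.54 for NADPH oxidase, 0.79 for hypoxia and 1.49 for immediate early genes. The cytokine median reversed to 1.24 and Cxcl2 to a log2 ratio of 0.35. With the mixed barcodes left out, Cxcl2 had a ratio of 0.600 [0.471 to 0.772] at this depth, Cxcl3 1.10 and Il1b 1.91. The summed cytokine list had 1.13. Control barcodes of this depth also held most of the dendritic marker UMIs of the unmixed control barcodes, and the cause of these differences was not tested. Mature identity was −0.19 with keratins at 0. The log2 ratio of Lcn2 was 0.000334 without mixed barcodes, which held 62.5% of its control UMIs.

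Thinned to 1000 UMIs, granule-high cells, with at least 2 UMIs of granule genes, were 30.0% and 8.99%. They were 6.23% and 3.31% at 500 UMIs, and 71.4% and 18.2% at 2000 UMIs. Interferon-high cells with progesterone were 89.9% at 1000 and 63.6% at 500 UMIs. Cytokine-high cells were 15.0% and 48.3% at 1000 UMIs, 41.6% and 16.3% at 500, and 0% and 27.3% at 2000, where only 7 control and 11 progesterone barcodes remained.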
